A study of Mus musculus with 6 samples.

Results

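The chemokine receptors of splenic natural killer (NK) cells are described here in mice with and without the transcription factor Runx3. The 8 receptor genes were Cx3cr1, Cxcr3, Cxcr4, Cxcr6, Ccr1, Ccr2, Ccr7 and Ccrl2. Every probe set whose only annotated gene symbol is one of these was taken, which gave 14 probe sets out of 34945 with 1 symbol, and 8 genes out of 18193. All 8 genes passed the filter on dim signal, and are among the 9545 genes tested. The arrays came from 3 Runx3-/- mice and 3 wild type mice (WT, labelled Runx3 +/+), all ICR, 6 weeks old, with 1 array for each mouse. NK cells were enriched from spleen by negative selection, sorted for DX5 and used freshly isolated, without stimulation. DX5 is an antibody to CD49b, an integrin chain that NK cells and also basophils carry. The Runx3-/- mice lack Runx3 in all cells and not only in NK cells, and both sexes stand in the label of each sample although the design assigns each to an individual mouse.

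Chemokines are small secreted proteins that guide leukocytes through the body, and their receptors are membrane proteins that signal through the inhibitory class of G proteins to integrins and the actin cytoskeleton. Mouse NK cells use Cxcr4 to stay in the bone marrow, Cxcr3 and Ccr2 to enter inflamed tissue, and Cxcr6 to remain in the liver. Ccr7 leads lymphocytes and dendritic cells to lymph nodes. Cx3cr1, the receptor for fractalkine (Cx3cl1), appears late in NK cell maturation. Ccrl2 is an atypical member that binds chemerin and does not signal like the others.

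Signal is given as log2 of the GC-RMA value of a probe set, so that 1 unit is a doubling, and it depends on the probe set, which means that levels of different genes are not compared. Runx3 itself read 7.76, 8.51 and 8.68 in Runx3-/- NK cells, against 10.11, 11.56 and 10.73 in WT NK cells. It was 5.59-fold lower in Runx3-/- cells (log2 change -2.48, SE 0.41, limma adjusted p = 0.0565). These values are from the brighter of the 2 Runx3 probe sets, and whether it lies within the deleted part is not known here. The NK cell marker genes were bright in both groups, with a mean log2 signal over 13 genes of 13.34 to 13.55 in Runx3-/- cells and 13.32 to 13.70 in WT cells. Markers of other blood cells moved with the groups or with single arrays. Over all 9545 genes tested, 4.89% were higher and 8.86% lower in Runx3-/- cells at an unadjusted p under 0.05 and at least 1.5-fold, the thresholds of the study. Of 13 basophil and mast cell markers, 10 were higher at these thresholds. Il4 and Cma1 had log2 changes of 0.89 and 0.48 without meeting them, and Cd200r3 had one of -0.36, with overlapping groups for Cma1 and Cd200r3. The summed linear signal of the 13 markers was 42885 to 72225 in Runx3-/- cells and 15361 to 25650 in WT cells. The sum of 12 monocyte and macrophage markers ranged from 958 to 12288 among the Runx3-/- arrays, highest in replicate 1 and lowest in replicate 3, and from 2356 to 3203 among the WT arrays. The sum of 10 B cell markers, of which 4 were higher and 0 lower at these thresholds, was 1895 to 4045 in Runx3-/- cells and 796 to 2654 in WT cells, and that of 8 neutrophil markers was 365 to 4303 in Runx3-/- cells and 339 to 4169 in WT cells. Of these 8 neutrophil markers, 0 were higher and 1 was lower, Camp, which exceeded log2 5 only on WT replicates 1 and 2. Of 9 dendritic cell markers, 2 were higher, the class II genes H2-Aa and H2-Ab1, and 2 were lower, the integrin genes Itgax and Itgae. In RNA from sorted populations like these, fewer cells of a type and less RNA per cell cannot be told apart.

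Of the 8 receptors, 3 were higher in Runx3-/- NK cells at the thresholds of the study. These were Cx3cr1, the receptor for fractalkine, at 4.01-fold, Ccr1, an inflammatory receptor shared by Ccl3, Ccl5 and other chemokines, at 2.79-fold, and Cxcr6, the receptor for Cxcl16, at 1.92-fold. None was lower at those thresholds. Among all 9545 genes tested, 4.89% were higher and 8.86% were lower by the same criterion. After Benjamini-Hochberg adjustment over all genes tested, 0 of the 8 passed 5% with limma, the only tool run, while 3 had an unadjusted p under 0.05. At 5%, 0.608% of all genes passed. The same 3 receptors were the ones whose Runx3-/- and WT values did not overlap, with every Runx3-/- array above every WT array, which held for 5.98% of all genes tested, and none lay wholly below, which held for 16.8%. The other 5 receptors had negative log2 changes and overlapping groups. The median change of the 8 receptors was -0.21 on the log2 scale, beside -0.13 over all genes tested, and a scaling that centres each array on its tested genes brings the median over all genes tested to -0.01.

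**Figure D1:**
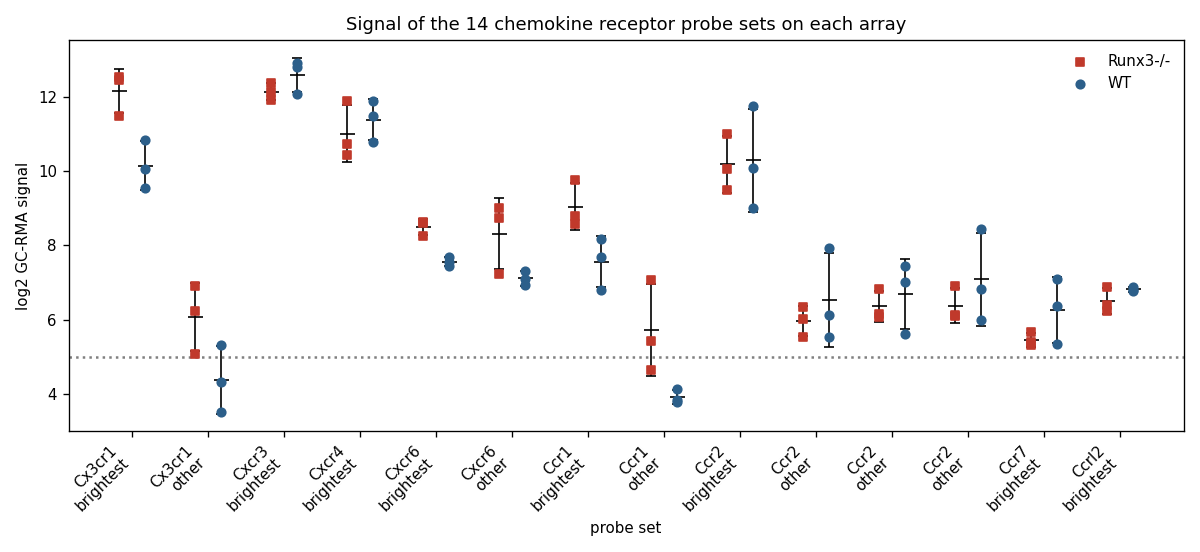
Log2 GC-RMA signal of the 14 chemokine receptor probe sets on each array, with Runx3-/- arrays as squares and WT arrays as circles (n = 3 each), and the mean and SD as black bars. The dotted line marks log2 5, the level taken as background. The Runx3-/- arrays lie above all WT arrays for the brightest probe sets of Cx3cr1, Cxcr6 and Ccr1 and for the second probe set of Ccr1.

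**Figure D2:**
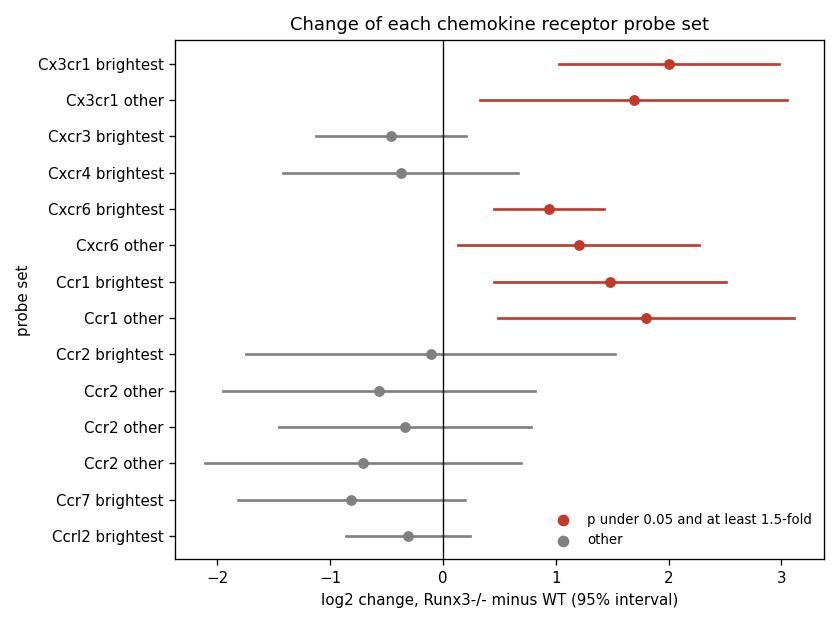
Log2 change of each receptor probe set, Runx3-/- minus WT, with its 95% interval from a limma fit over 16521 probe sets. By p under 0.05 and at least 1.5-fold, 5.19% of all probe sets were higher, and so were the 6 of Cx3cr1, Cxcr6 and Ccr1 (red), with intervals above 0, while the intervals of the other 8 (grey) contained 0.

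The promoters of the 3 higher receptors are shown because the study concerns a factor that binds RUNX hexamers. Of these, TGTGGT is present in 16.8% of all 32851 mouse promoter windows of this kind, TGTGGC in 18.9%, TGCGGT in 6.45% and TGCGGC in 12.4%, on either strand. Each window covers 250 bases before and 50 after the start of the gene, from RefSeq on GRCm38.p6, written 5′ to 3′ on the strand of the gene. Capitals mark a hexamer on either strand, so that ACCACA is TGTGGT on the opposite strand. The windows are chr9:120068247-120068546 on the minus strand for Cx3cr1, chr9:123806227-123806526 on the plus strand for Cxcr6 and chr9:123968643-123968942 on the minus strand for Ccr1.
Cx3cr1: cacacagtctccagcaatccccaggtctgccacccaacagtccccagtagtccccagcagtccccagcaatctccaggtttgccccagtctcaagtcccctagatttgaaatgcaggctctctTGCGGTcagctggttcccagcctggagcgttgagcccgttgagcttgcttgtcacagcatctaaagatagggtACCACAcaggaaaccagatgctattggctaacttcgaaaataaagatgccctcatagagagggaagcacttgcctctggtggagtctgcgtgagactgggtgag
Cxcr6: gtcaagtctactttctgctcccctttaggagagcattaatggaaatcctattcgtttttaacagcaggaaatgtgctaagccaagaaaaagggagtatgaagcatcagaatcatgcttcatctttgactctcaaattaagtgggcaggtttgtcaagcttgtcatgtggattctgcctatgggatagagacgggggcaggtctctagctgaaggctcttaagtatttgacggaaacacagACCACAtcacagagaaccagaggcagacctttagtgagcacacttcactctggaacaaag
Ccr1: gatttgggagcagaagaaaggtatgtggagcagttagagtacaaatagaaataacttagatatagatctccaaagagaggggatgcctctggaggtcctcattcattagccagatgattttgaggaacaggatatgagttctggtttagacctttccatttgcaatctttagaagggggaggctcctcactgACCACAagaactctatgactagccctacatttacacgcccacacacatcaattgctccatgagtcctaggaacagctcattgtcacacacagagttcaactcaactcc
Counted from the start of the gene, Cx3cr1 held TGCGGT at position -127 and, on the opposite strand, TGTGGT at -54. Cxcr6 held TGTGGT on the opposite strand at -10, and Ccr1 held it there at -58. Of the receptors that did not reach the thresholds, Cxcr3 held TGTGGT on the opposite strand at -110 and at 11, while the windows of Cxcr4, Ccr2 and Ccrl2 held none of the 4 hexamers. The RefSeq table held 9 windows for 7 of the 8 receptors, all but Ccr7, with 3 overlapping windows for Ccrl2. A hexamer was present in 4 of the 9 windows (44.4%), against 45.2% of all mouse promoter windows and 49.7% of the 10036 windows of tested genes. The share among the receptors was close to that background, and a match of letters is a description and not a binding site.

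Cx3cr1 marks the late stages of NK cell maturation in the mouse and is also abundant on monocytes. Its brighter probe set (1450020_at) read 11.47, 12.52 and 12.46 in Runx3-/- NK cells, against 10.84, 9.54 and 10.06 in WT NK cells. All Runx3-/- arrays were above all WT arrays, with Runx3-/- replicate 1 and WT replicate 1 nearest to each other. The means were 12.15 ± 0.59 in Runx3-/- cells and 10.15 ± 0.65 in WT cells (SD, n = 3 each), a log2 change of 2.0 (SE 0.41, 95% interval 1.05 to 2.96, limma adjusted p = 0.0968). Only 55 of the 9545 genes tested had a higher log2 change. Without WT replicate 1 the change was 2.35 and passed 5% (limma adjusted p = 0.0462). Leaving out any other single array gave changes of 1.70 to 2.34, which did not pass (limma adjusted p of 0.118 to 0.291). The second probe set (1450019_at) was dim, at 5.07, 6.90 and 6.24 in Runx3-/- cells, against 5.31, 3.50 and 4.32 in WT cells. Its groups overlapped, because WT replicate 1 exceeded Runx3-/- replicate 1. It was at least 1.95-fold higher in Runx3-/- cells when WT values under log2 5 were set to 5 (limma adjusted p = 0.270 over all probe sets).

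Markers of monocytes and macrophages varied among themselves. Csf1r, the receptor for macrophage colony-stimulating factor, read 12.19, 10.02 and 5.85 in Runx3-/- cells, against 9.56, 9.32 and 8.79 in WT cells. Runx3-/- replicate 3 thus had the lowest Csf1r of all arrays and a Cx3cr1 signal of 12.46, while Runx3-/- replicate 1 had the highest Csf1r and the lowest Cx3cr1 of its group. Of the 12 monocyte and macrophage markers tested, 2 were higher at the study's thresholds, Cd14 and Adgre1, and none was lower. Over all genes tested these shares were 4.89% and 8.86%. Adgre1, a macrophage surface receptor, read 8.85, 8.33 and 7.05 in Runx3-/- cells, against 6.20, 6.53 and 5.91 in WT cells, and separated the groups as Cx3cr1 did (3.63-fold, limma adjusted p = 0.133). Cd14 exceeded log2 5 on 1 array only, Runx3-/- replicate 1. The part of monocyte and macrophage RNA in the Cx3cr1 difference was not tested. Klrg1, an inhibitory lectin-like receptor of mature NK cells, read 13.22, 14.15 and 13.64 in Runx3-/- cells, against 13.87, 11.74 and 11.95 in WT cells. Its log2 change was 1.15 with overlapping groups (SE 0.56, limma adjusted p = 0.354), and WT replicate 1 stood with the Runx3-/- arrays. Cd27, Itgam and Spn, other NK cell maturation genes, had log2 changes of -0.60, -0.34 and 0.12, also with overlapping groups. The genes closest to Cx3cr1 over the 6 arrays, by the root mean square difference of centred log2 signal, were Slc16a4 (0.175), Fgl2 (0.278) and Zfp40 (0.282). Slc16a4 was under log2 5 on Runx3-/- replicate 1 (4.30) and on all WT arrays (3.86, 2.90 and 3.29). Zfp40 was under it on WT replicates 2 and 3 (3.74 and 4.30), so these likenesses rest partly on values at background.

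Cxcr6 is the receptor for the membrane-bound chemokine Cxcl16 and is carried in the mouse by liver-resident innate lymphoid cells and by NKT cells. Its brighter probe set (1422812_at) read 8.25, 8.63 and 8.60 in Runx3-/- NK cells, against 7.45, 7.55 and 7.68 in WT NK cells. The groups were apart, and each was tighter than for any other receptor that reached the thresholds. The means were 8.5 ± 0.21 in Runx3-/- cells and 7.56 ± 0.12 in WT cells (SD, n = 3 each), a log2 change of 0.94 (SE 0.20, 95% interval 0.46 to 1.41, limma adjusted p = 0.116). The second probe set (1425832_a_at) read 7.22, 8.73 and 9.0 in Runx3-/- cells, against 7.10, 6.93 and 7.31 in WT cells. Runx3-/- replicate 1 lay among the WT values on that probe set, and the change was 1.20 (limma adjusted p = 0.302 over all probe sets, 2.30-fold). Leaving out any 1 array kept the change of the brighter probe set between 0.87 and 1.06.

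T cell markers, some of which NKT cells share, did not separate the groups, and 0 of 7 tested were called at the study's thresholds. Their mean log2 signal was 8.11 to 8.69 in Runx3-/- cells and 7.95 to 8.77 in WT cells. Itga1 encodes CD49a, the integrin chain that in the mouse liver marks the resident cells carrying Cxcr6. It read 9.57, 8.31 and 7.84 in Runx3-/- cells, against 6.91, 5.54 and 5.41 in WT cells. Itga1 was 6.16-fold higher in Runx3-/- cells with separate groups (log2 change 2.62, SE 0.54, limma adjusted p = 0.101). Eomes, the T-box factor of conventional NK cells, was 1.63-fold lower at the study's thresholds, at 13.00, 13.40 and 12.99 in Runx3-/- cells and 13.71, 13.81 and 13.99 in WT cells (limma adjusted p = 0.185). Cd69, Il7r and Itga2, which encodes CD49b, had log2 changes of -0.10, -0.14 and 0.41, and their groups overlapped. The part of resident cells in the Cxcr6 difference was not tested. The genes nearest to the profile of Cxcr6 were Pdzd2 (root mean square difference 0.122), Mdm1 (0.125) and Cpne7 (0.152). Pdzd2 was under log2 5 on Runx3-/- replicate 1 (4.96) and on all WT arrays (4.24, 4.13 and 4.50), and is thus limited by the background.

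Ccr1 binds Ccl3, Ccl5 and, in the mouse, Ccl6 and Ccl9, and is found on monocytes, neutrophils, basophils and activated lymphocytes. Its brighter probe set (1419609_at) read 9.76, 8.79 and 8.57 in Runx3-/- NK cells, against 8.17, 6.81 and 7.70 in WT NK cells. All Runx3-/- arrays were above all WT arrays, the highest being Runx3-/- replicate 1 and the lowest WT replicate 2. The means were 9.04 ± 0.63 in Runx3-/- cells and 7.56 ± 0.69 in WT cells (SD, n = 3 each), a log2 change of 1.48 (SE 0.43, 95% interval 0.48 to 2.49, limma adjusted p = 0.179). The second probe set (1419610_at) read 7.07, 5.44 and 4.66 in Runx3-/- cells, against 4.14, 3.78 and 3.84 in WT cells. No WT array reached log2 5 there, and 2 of the Runx3-/- arrays did. It was at least 1.78-fold higher in Runx3-/- cells (limma adjusted p = 0.240 over all probe sets). Leaving out any 1 array gave changes of 1.11 to 1.79 for the brighter probe set.

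The profile of Ccr1 ran beside that of a basophil gene. Fcer1a, the IgE-binding chain of the high-affinity IgE receptor, had the smallest difference from Ccr1 of all genes tested (root mean square difference 0.141), followed by Mx1 (0.169) and Ifi27l2a (0.195), both induced by interferon. Mx1 was under log2 5 on WT replicates 2 and 3 (3.54 and 4.54). Fcer1a read 11.66, 10.68 and 10.56 in Runx3-/- cells, against 9.72, 8.55 and 9.53 in WT cells, and thus was highest and lowest on the same arrays as Ccr1. Mcpt8, a protease of mouse basophils, read 12.85, 12.46 and 12.70 in Runx3-/- cells, against 10.34, 11.40 and 11.44 in WT cells. The groups were apart for both genes. Of the 13 basophil and mast cell markers, 2, Hdc and Il6, passed 5% after adjustment with limma, beside 0.608% of all genes tested. The part of these markers in the Ccr1 difference was not tested.

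Ccr2, the receptor for Ccl2 that brings monocytes out of the bone marrow, had 4 probe sets. The brightest (1421186_at) read 11.0, 10.06 and 9.48 in Runx3-/- NK cells, against 11.76, 10.10 and 9.01 in WT NK cells. The WT arrays enclosed all Runx3-/- arrays, from the highest in WT replicate 1 to the lowest in WT replicate 3. The log2 change was -0.11 with a 95% interval of -1.71 to 1.49 (limma adjusted p = 0.955), and thus an interval that holds sizeable changes of either sign. The sign turned without WT replicate 1 (0.63), without Runx3-/- replicate 3 (0.24) and when the arrays were centred on their tested genes (0.01). The other 3 probe sets had changes of -0.34 to -0.71, and WT replicate 1 was the highest array on all 4. The mean of the monocyte and macrophage markers was 9.10, 7.30 and 4.99 in Runx3-/- cells, against 6.58, 6.53 and 6.41 in WT cells. Within each group it fell from replicate 1 to replicate 3, as did the brightest Ccr2 probe set. The highest array was Runx3-/- replicate 1 for the marker mean and WT replicate 1 for Ccr2. The part of monocyte and macrophage RNA in the Ccr2 values was not tested.

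Cxcr3, the receptor for the interferon-induced chemokines Cxcl9, Cxcl10 and Cxcl11, read 12.36, 11.90 and 12.12 in Runx3-/- NK cells, against 12.07, 12.90 and 12.79 in WT NK cells. WT replicate 1 lay among the Runx3-/- arrays, and the other WT arrays lay above them. The log2 change was -0.46 (SE 0.28, 95% interval -1.10 to 0.19, limma adjusted p = 0.445). Ccr7, which leads lymphocytes and dendritic cells to lymph nodes, was dim, at 5.39, 5.31 and 5.68 in Runx3-/- cells, against 5.34, 6.36 and 7.10 in WT cells. Here too WT replicate 1 was at the level of the Runx3-/- arrays. The log2 change of Ccr7 was -0.81 (SE 0.42, 95% interval -1.79 to 0.17, limma adjusted p = 0.384). Without WT replicate 1, Cxcr3 (log2 change -0.72) and Ccr7 (-1.28) both met the study's thresholds for lower signal. Cd3d, a chain of the T cell receptor complex, read 8.61, 7.70 and 8.69 in Runx3-/- cells, against 7.82, 8.81 and 9.57 in WT cells, and was highest and lowest on the same arrays as Ccr7. Other chains of that complex did not share both arrays. Cd3e had a log2 change of 0.38, and was highest on Runx3-/- replicate 1 and lowest on WT replicate 1. Cd3g had a change of 0.005, and was highest on WT replicate 3 and lowest on Runx3-/- replicate 1. The part of T cell RNA in the Ccr7 values was not tested. Neither Cxcr3 nor Ccr7 passed 5% after adjustment with limma in any of the 21 alternatives, and without WT replicate 3 the change of Ccr7 was -0.39.

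Cxcr4, the receptor for Cxcl12 that retains developing NK cells in the bone marrow, read 10.72, 11.88 and 10.42 in Runx3-/- NK cells, against 10.78, 11.49 and 11.88 in WT NK cells. The groups overlapped, with Runx3-/- replicate 2 as high as the highest WT array. The log2 change was -0.37 (SE 0.44, 95% interval -1.39 to 0.64, limma adjusted p = 0.699), and it ranged from -0.81 without Runx3-/- replicate 2 to -0.08 without Runx3-/- replicate 3. Ccrl2, which binds chemerin, read 6.39, 6.89 and 6.23 in Runx3-/- cells, against 6.76, 6.80 and 6.88 in WT cells. The WT arrays were close together, and Runx3-/- replicate 2 was above them. Its log2 change was -0.31 (SE 0.23, 95% interval -0.85 to 0.23, limma adjusted p = 0.528).

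**Figure D3:**
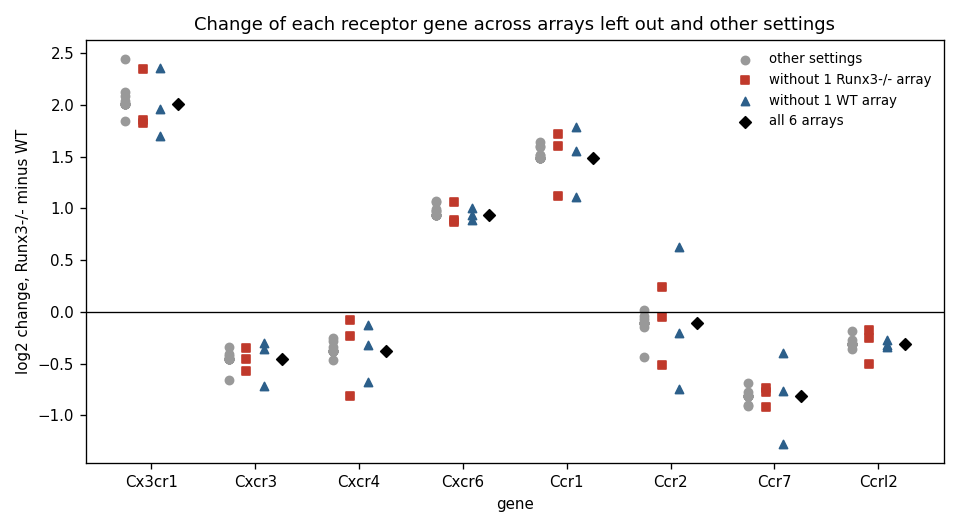
Log2 change of each receptor gene, Runx3-/- minus WT, with all 6 arrays (black), with 1 Runx3-/- array left out (red squares), with 1 WT array left out (blue triangles) and under other settings of the fit or the filter (grey). Cx3cr1, Cxcr6 and Ccr1 stayed above 0 throughout, and Ccr2 lay on both sides of 0.

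The array values of the receptors and of the marker lists are set out together in the heat map. The mean of the neutrophil markers was 7.49, 4.92 and 4.58 in Runx3-/- cells, against 7.24, 7.93 and 4.26 in WT cells, with overlapping groups. The mean of the basophil and mast cell markers was 11.38, 10.46 and 10.31 in Runx3-/- cells, against 9.40, 8.88 and 9.38 in WT cells, and separated the groups as Cx3cr1, Cxcr6 and Ccr1 did. The part of basophil or neutrophil RNA in the receptor differences was not tested.

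**Figure D4:**
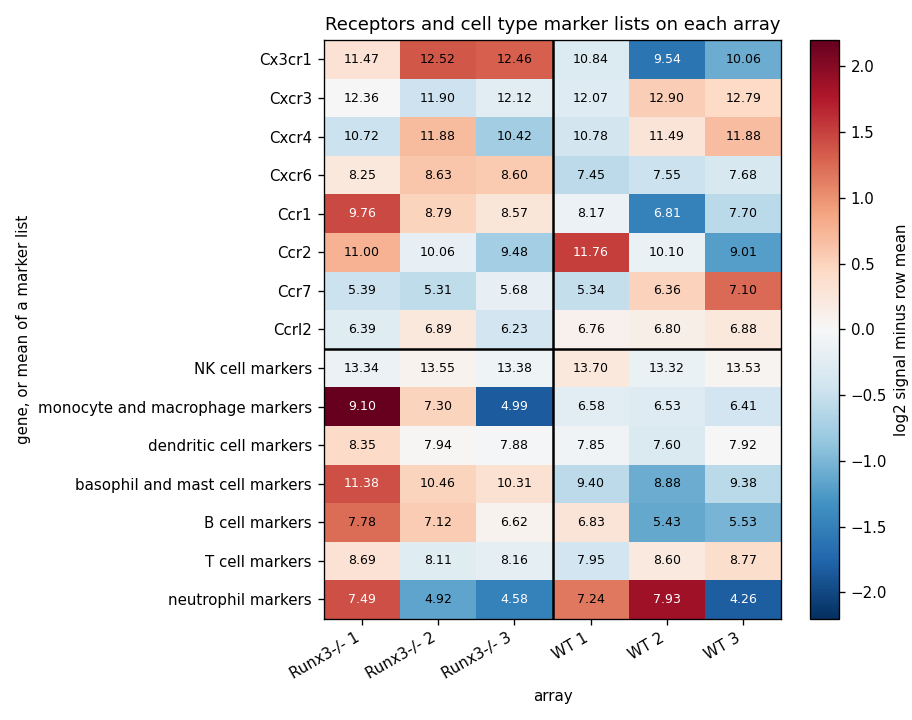
Log2 signal of the 8 receptors (top) and mean log2 signal of 7 cell type marker lists (bottom) on each array, printed in the cells, with colour for the difference from the mean of the row. Runx3-/- arrays are on the left and WT arrays on the right. The basophil and mast cell row separates the groups, and the monocyte and macrophage row spans 4.99 to 9.10 within the Runx3-/- arrays.

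Among 17 other chemokine receptors, 6 were tested, 9 stayed below log2 5 on all arrays and the others had no probe set of 1 symbol. Cxcr2, the neutrophil receptor for Cxcl1 and Cxcl2, was the one of the 6 that met the study's thresholds, beside 4.89% higher and 8.86% lower over all genes tested. It read 6.38, 6.15 and 6.47 in Runx3-/- cells, against 5.23, 4.54 and 4.52 in WT cells, and was at least 2.39-fold higher in Runx3-/- cells (log2 change 1.57, SE 0.25, limma adjusted p = 0.0533). Its groups were apart, the neutrophil markers were high on Runx3-/- replicate 1, WT replicate 1 and WT replicate 2, and the part of neutrophil RNA in Cxcr2 was not tested. Cmklr1, the signalling receptor for chemerin and a gene of NK cells and macrophages, had a log2 change of 0.76 (SE 0.33, limma adjusted p = 0.315). Ccr6, a receptor of B cells and some T cells, had a log2 change of 0.40 (SE 0.39, limma adjusted p = 0.642).

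Of 18 ligands of the 8 receptors, 6 were tested and 10 stayed below log2 5 on all arrays, among them Cx3cl1 and Cxcl16, the ligands of Cx3cr1 and Cxcr6. Ccl6 and Ccl9, ligands of Ccr1, both met the study's thresholds as higher, and no ligand met them as lower. Over all genes tested, 4.89% were higher and 8.86% lower. Cxcl10, near log2 5, and Ccl4 had log2 changes of -0.09 and -0.06 with overlapping groups. Ccl6 read 13.95, 13.93 and 13.66 in Runx3-/- cells, against 11.89, 11.72 and 12.77 in WT cells, 3.29-fold higher in Runx3-/- cells (log2 change 1.72, SE 0.30, limma adjusted p = 0.0645). Ccl9 read 13.80, 13.22 and 13.34 in Runx3-/- cells, against 12.22, 11.73 and 12.54 in WT cells, 2.45-fold higher (log2 change 1.29, SE 0.28, limma adjusted p = 0.113). Both ligands, like Ccr1, had separate groups. Ccl5, a ligand of Ccr1 that NK cells make, had a log2 change of 0.08 with a 95% interval of -0.39 to 0.55. Ccl3 had one of 0.87 with an interval of -0.15 to 1.89, and its groups overlapped.

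Of 26 genes for G protein signalling, integrin activation and actin movement, all were tested by their brightest probe set, and 0 were higher and 1 was lower at the study's thresholds, beside 4.89% higher and 8.86% lower over all genes tested, so that the count was near that of all genes. Their median change was -0.06. The lower gene was Vav1, an exchange factor for Rac, at 9.74, 10.01 and 9.86 in Runx3-/- cells, against 10.73, 10.58 and 10.78 in WT cells (log2 change -0.83, SE 0.19, limma adjusted p = 0.127), and its other probe set had a change of -0.18. Coro1a, an actin regulator, and Rap1b, a small GTPase that activates integrins, had changes of -0.31 and 0.38. Further probe sets of 3 genes met the study's thresholds as higher, with changes of 0.70 for Rap1b, 1.07 and 0.79 for Dock8, an exchange factor for Cdc42, and 0.71 for Tln1, which codes for the integrin activator talin (limma adjusted p of 0.209 to 0.330 over all probe sets). The brightest probe sets of Dock8 and Tln1 had changes of 0.10 and 0.03. A further probe set of Gng2, also in this list, met the thresholds as lower, with a change of -1.02 (limma adjusted p = 0.268 over all probe sets). The brightest probe set of Gng2 had a change of -0.85 and did not meet them.

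Of 13 tested genes that switch off or desensitise the receptors, 3 were higher and 0 were lower at the study's thresholds. Over all genes tested, 4.89% were higher and 8.86% lower. All 3 were RGS genes, whose proteins speed the return of G proteins to the inactive state. Rgs1 read 8.84, 8.63 and 9.10 in Runx3-/- cells, against 8.08, 7.05 and 6.99 in WT cells (2.80-fold, log2 change 1.48, limma adjusted p = 0.117). Rgs18 read 9.12, 9.54 and 8.40 in Runx3-/- cells, against 7.86, 6.79 and 7.55 in WT cells (3.08-fold, log2 change 1.62, limma adjusted p = 0.130). The groups were apart for both. Rgs2 was 1.64-fold higher (limma adjusted p = 0.286), while Grk6, a receptor kinase, and Arrb2, an arrestin, had changes of 0.07 and 0.23.

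**Figure D5:**
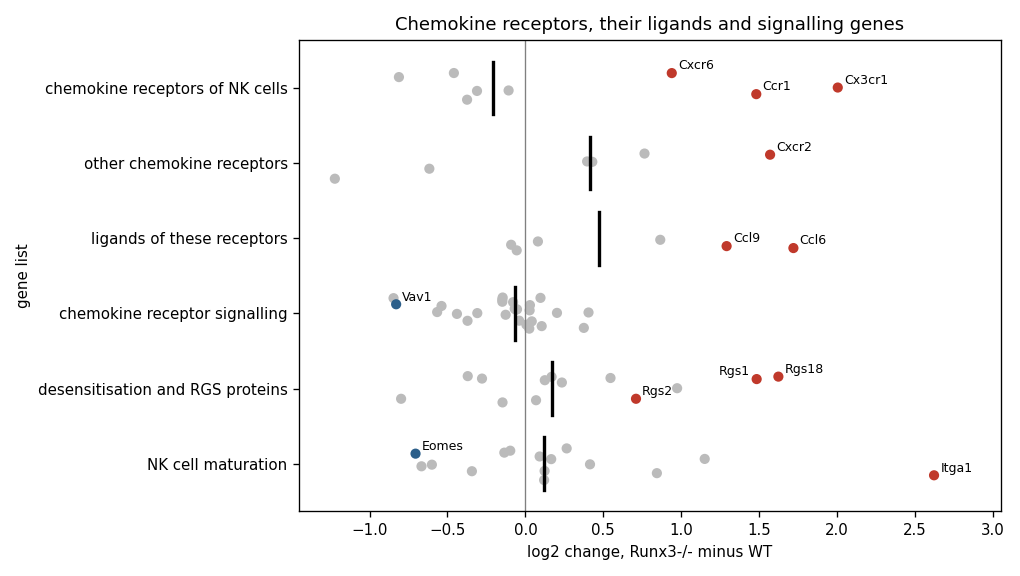
Log2 change, Runx3-/- minus WT, of each tested gene of the 8 receptors, the other chemokine receptors, the ligands, the signalling genes, the desensitisation and RGS genes and the NK cell maturation genes. Red and blue mark genes higher or lower in Runx3-/- cells at the study's thresholds, grey marks the others, and black bars mark the list medians, from -0.21 for the 8 receptors to 0.47 for the ligands.

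Of 15 NK cell maturation genes, all were tested, 1 was higher (Itga1) and 1 was lower (Eomes) at the study's thresholds, beside Cx3cr1, which was counted with the receptors. These counts were near the shares over all genes tested, 4.89% higher and 8.86% lower. The list's median change was 0.12. Zeb2, a repressor needed for late NK cell maturation, had a change of 0.84 on its brightest probe set, which did not meet the thresholds, while 2 of its further probe sets did, with changes of 1.53 and 1.18 (limma adjusted p = 0.208 and 0.255 over all probe sets). S1pr5, the sphingosine phosphate receptor that lets mature NK cells leave the bone marrow and lymph nodes, had a change of 0.12 with a 95% interval of -0.46 to 0.70. Tbx21, the T-box factor T-bet, had a change of 0.17 with an interval of -0.30 to 0.63.

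Of the 8 receptors, 5 lie on chromosome 9 in GRCm38.p6, namely Cx3cr1, Cxcr6, Ccr1, Ccr2 and Ccrl2, while Ccr7 lies on chromosome 11, Cxcr3 on X and Cxcr4 on chromosome 1. Cxcr6, Ccr1 and Ccr2 belong to a run of neighbouring genes in the order Lztfl1, Ccr9, Fyco1, Cxcr6, Xcr1, Ccr1, Ccr1l1, Ccr3 and Ccr2. Of these, 5 were tested. Cxcr6 and Ccr1 were higher at the study's thresholds, whereas Ccr2, further along the run, had a change of -0.11, and Lztfl1 and Fyco1, which code for proteins outside the receptor family, had changes of 0.32 and 0.35 with overlapping groups. Ccr9, Xcr1, Ccr1l1 and Ccr3 stayed below log2 5 on all arrays.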

How the data were processed

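RNA of DX5-sorted splenic NK cells from 3 Runx3-/- and 3 WT mice was hybridised to Affymetrix mouse expression arrays, 1 per mouse. The labels name a cDNA synthesis and labelling kit and the methods a whole-transcript kit. The authors processed the scans in Partek with GC-RMA, for which no version is given, and deposited log2 values of 45101 probe sets. GC-RMA normalizes the oligonucleotide signals between arrays, so a change in total RNA cannot be seen, and dim values follow its background model. The summarised values keep small differences between arrays.

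Gene symbols came from the platform annotation, in which 64 were controls, 34945 probe sets had 1 symbol, 932 several and 9160 none listed. By Entrez ID, 34741 matched the GRCm38.p6 table and 0 symbols differed. No build is named for the array. The probe set with the highest mean stood for its gene, and 9545 of 18193 genes with log2 5 or more on at least 1 array were tested, the study's own background level not being given in the sources used here. The arrays had 17074 to 17771 probe sets at that level, and at most 0.0111% of values were identical between any pair.

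The contrast of Runx3-/- and WT was fitted in limma 3.58.1 (R 4.3.3) with lmFit and eBayes and no covariate, with Benjamini-Hochberg adjustment over the 9545 genes, and in a second fit over 16521 probe sets for the further probe sets of the receptors. The thresholds of the study (at least 1.5-fold with an unadjusted p below 0.05) were also applied. Its test is not named, so limma was used. A fold against a group with values under log2 5 was computed with them raised to 5 and written as "at least". The fit was tested on simulated data.

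The receptors and all gene lists were chosen with earlier results of these data known. Named were all receptor probe sets, Runx3, and the 3 closest profiles of each receptor that met the study's thresholds. Of the other receptor, ligand, signalling, desensitisation and maturation lists, genes that met the thresholds and up to 2 further genes with the highest mean were named. Of the marker lists only some genes were named, and others that met the thresholds or stood first in their list were not. Further genes named were chosen after their values were seen. These were Klrg1, Zeb2, Dock8, Tln1, Gng2, the neighbours on chromosome 9, and the maturation genes Cd27, Itgam, Spn, Cd69, Il7r and Itga2. Ccl4, Cxcl10, Il4, Cma1 and Cd200r3 were added in the same way. Other filters, scalings, floors, eBayes options, array weights and probe set choices, a replicate block and left-out arrays served as alternatives. The number of arrays limits the precision. 1 chemokine receptor outside the 8 is not reported here.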

Additional observations from a re-analysis of the deposited data

How the results depend on the processing

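Cx3cr1, Cxcr6 and Ccr1 stayed higher in Runx3-/- cells and met the study's thresholds in all 21 alternatives. Array weights made 2 receptors pass 5%, Cx3cr1 (log2 change 2.44, adjusted p = 0.0202) and Cxcr6 (0.99, adjusted p = 0.0405), and 5 meet the study's thresholds, 3 higher and 2 lower (Cxcr3 and Ccr7). Leaving out 1 array gave 0 to 1 receptors at 5% (1 without WT replicate 1) and 3 to 5 at the study's thresholds (5 without WT replicate 1), and changes of 1.70 to 2.35 for Cx3cr1 and -0.74 to 0.63 for Ccr2. Chosen after seeing the data, leaving out replicate 1 of both groups gave 1 and 5, with Cx3cr1 at 2.69 (adjusted p = 0.0388) and Ccr2 at 0.22, and centring on the tested genes gave 0.014 for Ccr2. Over all genes, 58 passed 5%, against 203 with array weights, 37 with values raised to log2 5, 14 with every probe set tested, 12 with the mean of a gene's probe sets, 1 without a filter, and 0 to 128 with 1 array left out (128 without WT replicate 1, 0 for each of the other arrays). The count at the study's thresholds was 1313 (467 higher, 846 lower) and 971 to 1891 with 1 array left out, against 2123 with every probe set, 2148 without replicate 1 of both groups, and 627 higher and 498 lower after centring on the tested genes. The cause of these shifts was not tested. Correlations of same-numbered deviations were 0.0652, -0.186 and 0.154, and those of differently numbered ones ranged from -0.273 to 0.218. From 3 arrays a group, these cannot decide whether replicate numbers pair the samples. With the replicate number as a block, 0 genes passed 5% with limma, 1341 met the study's thresholds, and 3 receptors did. Values near or under log2 5, as for Ccr7 and the second probe sets of Cx3cr1 and Ccr1, are limited by the background.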
